A study of Mus musculus with 8 samples.

Results

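The cytokine and growth factor receptors described here are 8 genes of the 23131 in the deposited table, found by their symbols: Kit, Flt3, Csf3r, Csf2ra, Csf2rb, Csf2rb2, Il3ra and Il6ra. They were measured by RNA sequencing in granulocyte-macrophage progenitors (GMP), the marrow cells from which neutrophils and monocytes arise. Of the 8 genes, 1 passed the test in mice lacking Rnaseh2b in blood cells, beside 1.40% of all genes tested. This was Flt3, which rose 2.14-fold, from a mean of 423 to 880 normalised counts. The call was lost in some of the other settings tried. Csf2rb2 was higher in all 4 knockouts than in any control but did not pass the test. Csf2rb and Il3ra, with fitted changes of 1.16-fold and 1.14-fold, did not pass either. For Kit, Csf3r, Csf2ra and Il6ra the fitted change was below 1.1-fold, with intervals given beside each gene.

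Kit and FLT3 are receptor tyrosine kinases. Stem cell factor binds Kit, and FLT3 ligand binds FLT3, which marks early multipotent, lymphoid-primed and dendritic cell progenitors and is shut down as cells commit to granulocytes. The other 6 genes encode chains of cytokine receptors that have no kinase of their own and signal through Janus kinases (JAK) and STAT transcription factors. Csf3r is the receptor for G-CSF, the main growth factor of neutrophils. Csf2ra and Il3ra are the ligand-specific alpha chains for GM-CSF and IL-3. Csf2rb is the beta chain shared by the GM-CSF, IL-3 and IL-5 receptors, and Csf2rb2 is a second beta chain of the mouse that serves IL-3 alone. Il6ra binds IL-6 and signals through the shared chain encoded by Il6st.

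All 8 mice were C57BL/6 and homozygous for the floxed Rnaseh2b allele (Rnaseh2bfl/fl). The 4 knockout mice also carried VavCre, a recombinase that the Vav promoter drives in blood-forming cells, and the 4 control littermates did not. Rnaseh2b encodes a subunit of RNase H2, which removes ribonucleotides from genomic DNA. The labels used here give no age. They write the sort gate as LE-K CD16/32hiCD34+ without spelling out every letter. Libraries are called controls 1 to 4 and knockouts 5 to 8, as numbered in the labels.

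Between 28352720 and 45655518 reads per library fell on genes. Rnaseh2b had 2288, 2470, 1249 and 1207 normalised counts in controls 1 to 4, against 117.9, 127.5, 75.9 and 95.3 in knockouts 5 to 8, so no library went against its label. On the second principal component (17.7% of the variance), control 1 at 34.6 and knockout 8 at -49.7 were the extremes, and no other library lay beyond -14.0 or 10.9. The GMP markers were abundant: per kilobase, Mpo averaged 235457 normalised counts in controls and 215954 in knockouts, and Cd34 averaged 1550 and 1969. Ly6a, the gene of the stem cell antigen Sca-1, averaged 49.4 and 119 per kilobase, with 342.6 normalised counts in knockout 8 against at most 112.9 in any other library. The 10 GMP markers summed to 1265046 to 1381168 normalised counts in controls and 1143085 to 1203649 in knockouts, ranges that do not overlap. Most of each sum was Mpo, and taken singly 0 of the 10 separated the groups. With limma or edgeR 0 of them passed (5 and 6 at an unadjusted p below 0.05). DESeq2, which called 3.34% of all genes, called Cd34 and Elane. These 2 went in opposite directions (limma log2 fold change 0.34 and -0.35). The part of these marker differences in the results below was not tested.

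The receptors fell into a high and a low set. As a level, in normalised counts per kilobase of the gene length given in the table, the control means were 1340 for Csf3r, 1332 for Csf2ra, 1062 for Kit, 719 for Csf2rb, 663 for Il3ra, 560 for Il6ra, 82.6 for Csf2rb2 and 68.5 for Flt3. In controls, the ranges of Csf3r and Csf2ra overlapped, as did those of Csf2rb and Il3ra, of Il3ra and Il6ra, and of Csf2rb2 and Flt3. The other neighbours in this order were separate. In knockouts the first pair and the last pair changed places (Csf2ra 1356, Csf3r 1339, Flt3 143, Csf2rb2 127), again with overlapping ranges within each pair.

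Kit and Csf2rb were the steadiest receptors in controls. Their control levels varied by 1.85% and 1.77% (coefficient of variation, n = 4), where read counting alone gives 1.00% and 1.35%. Flt3 varied most in controls, by 29.7% against 4.72% from counting. In knockouts, Csf2rb2 (24.2% against 3.99% from counting) and Il6ra (21.3% against 1.39%) varied most. The spread between libraries was thus wider than counting error, least so for Kit and Csf2rb in controls. What the rest of it comes from was not tested.

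**Figure D1:**
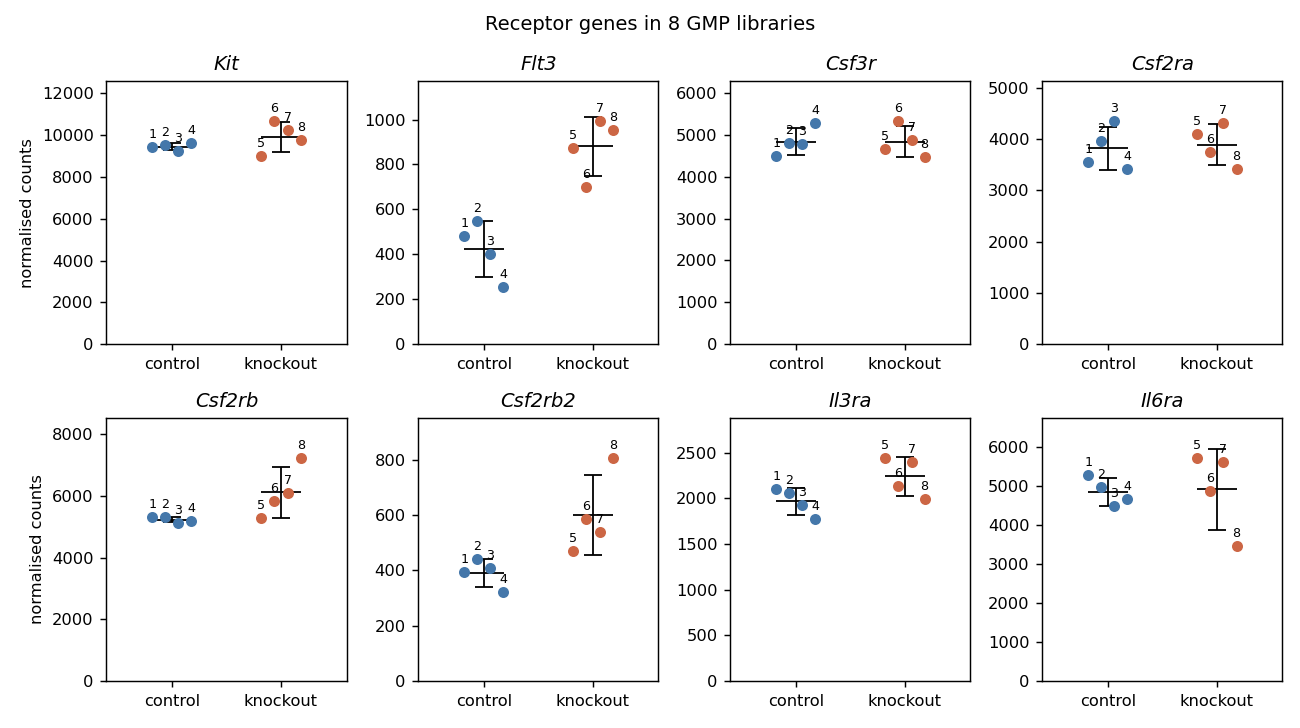
Normalised counts of the 8 receptor genes in each library; points are libraries labelled with their number, bars are mean ± SD over 4 libraries, and each vertical axis starts at 0. Only for Flt3 (256.7 to 548.8 in controls, 699.8 to 992.8 in knockouts) and Csf2rb2 (321.5 to 441.1 and 471.7 to 807.5) do the groups separate.

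Of the 8 receptors, 1 passed the test and it was upward (limma, Benjamini-Hochberg over 16688 genes). Over all genes tested 1.40% passed, 1.19% upward, so 1 call among 8 genes is not a result about the receptors as a group. The groups did not overlap for 2 of the 8, where this held for 7.41% of all genes tested. The median log2 fold change of the 8 was 0.13, beside -0.01 over all genes tested. On reads recovered from the table, edgeR called 1 of the 8 (1.44% of all genes) and DESeq2 called 2 (3.34% of all genes), the second being Csf2rb2. With array weights 2 were called (6.00% of all genes) and with no intensity trend 0 were (0.623% of all genes). In that last fit 2 of the 8 had an unadjusted p below 0.05, against 3 in the test as reported.

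**Figure D2:**
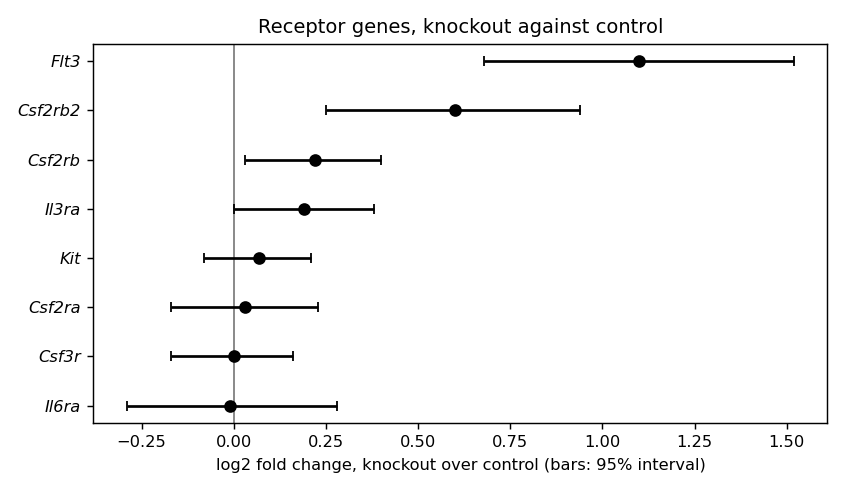
Log2 fold change of each receptor gene, knockout over control (horizontal axis), with points for the limma estimate and bars for its 95% interval, which is per gene and not adjusted for the number of genes. Flt3 stands at 1.10 (0.68 to 1.52), Csf2rb2 at 0.60 (0.25 to 0.94), Csf3r at 0 and Il6ra at -0.01.

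Flt3 (ENSMUSG00000042817; chromosome 5, 147330741 to 147400489, minus strand, mm10) was the receptor that rose. It had 482.8, 548.8, 403.5 and 256.7 normalised counts in controls 1 to 4, against 874.2, 699.8, 992.8 and 953.7 in knockouts 5 to 8. Every knockout lay above every control, and control 4 was the lowest library. The means were 423 ± 126 and 880 ± 130 (SD, n = 4 each), a difference of 2.14-fold with a 95% interval from 1.6 to 2.87. On the log2 scale the rise was 1.10 with a standard error of 0.196, and limma gave it an adjusted p of 0.010, rank 112 among all genes tested. Counting error was small beside this: the 277 reads of control 4 allow 227 to 289 normalised counts and the 719 reads of knockout 6 allow 650 to 753 (exact Poisson 95% intervals, counting error only). Without knockout 7 the adjusted p was 0.0503, and with no intensity trend it was 0.136. Without control 4 the log2 fold change was 0.88 (adjusted p = 0.0116). In bulk libraries, more cells carrying a transcript and more transcript per cell cannot be told apart.

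Other cell types, some of them known for FLT3 and some not, were followed by their markers. Beside the calls in each marker list, the share over all genes tested was 1.40% with limma, 1.44% with edgeR and 3.34% with DESeq2. The groups did not overlap for 7.41% of all genes tested. No share over all genes was taken at an unadjusted p below 0.05, here or for the other lists. Of 10 dendritic cell markers, 5 (Siglech, Zbtb46, Cd209a, Batf3 and Xcr1) had at most 10 normalised counts in any library. Of the 5 tested, 2 had an unadjusted limma p below 0.05. Bst2, which interferon also induces, rose and passed, and Tcf4 did not pass (log2 fold change 0.20). The list summed to 23060 to 29395 in controls and 20294 to 29836 in knockouts, ranges that overlap, with knockout 8 lowest. Most of the sum was Irf8 (19728.5 ± 2544.6 and 18022.5 ± 3796.3), a gene also on the monocyte list and itself lowest in knockout 8. The 10 stem cell and multipotent progenitor markers summed to 6011 to 7193 in controls and 6073 to 7680 in knockouts, and 0 of the 8 tested passed with limma or edgeR (3 and 4 at an unadjusted p below 0.05), while DESeq2 called Hoxa9. Those 3 were Procr, Meis1 and Hoxa9, all with a log2 fold change above 0 (0.82, 0.27 and 0.47), and Procr and Meis1 were higher in every knockout than in any control. Of the 8 tested, 5 had a log2 fold change above 0 and 3 below, which were Hlf (-0.01), Cd48 (-0.05) and Mllt3 (-0.14). Most of the sum was Cd48 (4686 ± 554 and 4532 ± 545). Slamf1 and Mycn had at most 16.1. Among lymphoid markers Cd79a, Ebf1 and Il7r had at most 9.0 in any library, and Dntt had 0 to 57.5 in controls and 3.6 to 10.7 in knockouts. The list summed to 9617 to 14414 in controls and 8990 to 12799 in knockouts, nearly all of it Nkg7. Both tested members, Dntt and Nkg7, had a log2 fold change below 0 (median -0.69). With limma, edgeR or DESeq2 0 passed, and 1 had an unadjusted limma p below 0.05. With array weights Nkg7 passed, where 6.00% of all genes did. The ranges of these sums overlapped between the groups. Those of the megakaryocyte markers did not, at 1646 to 2192 in controls and 2452 to 4083 in knockouts, where Vwf and Selp rose among 6 tested. Summed markers of monocytes (137856 to 152693 and 125181 to 158063) and of erythroid cells (6851 to 8980 and 5442 to 7917) overlapped, and most of each sum came from a few abundant genes. Within them Ccr2, a chemokine receptor of monocytes, rose (limma adjusted p = 0.0274). The globin genes Hbb-bt (0 to 6.6 and 6.8 to 43.3) and Hba-a1 (0 to 3.8 and 7.8 to 13.5) were low but higher in every knockout than in any control. Hba-a1 was too low to be tested. Of the 6 erythroid markers tested, 4 had a log2 fold change above 0 and 2 below. With limma or edgeR 0 of them passed, and DESeq2 called Hbb-bt. The later neutrophil sums also overlapped (1450 to 7339 and 1195 to 3125), yet 7 of the 8 tested members had an unadjusted limma p below 0.05. These went in both directions. The list median log2 fold change was -2.11, with 5 members below 0 and 3 above. S100a8 averaged 2673 ± 1938 and 474 ± 409, S100a9 500 ± 446 and 69.5 ± 64.6 and Ngp 70.3 ± 58.8 and 16.9 ± 17.3. Ltf was lower in every knockout than in any control (8.6 to 171.9 in controls and 1.0 to 7.7 in knockouts). Lcn2, in contrast, was higher in every knockout than in any control (515 ± 42.4 and 815 ± 334). Cxcr2 and Mmp8 also had a log2 fold change above 0 (0.45 and 0.50). Of this list 0 passed with limma or edgeR, and DESeq2 called Ngp and Lcn2. The part of these cells in the rise of Flt3 was not tested.

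The sequence around the Flt3 start site is shown because Flt3 was the receptor that passed the test. That of Csf2rb2, the receptor with the next largest difference, is given for comparison. In the RefSeq table used (GRCm38.p6; 250 bases before to 50 after each start site), 7 of the 8 receptors were matched, all but Csf2rb. Flt3 lies at chr5:147400440-147400739 (minus strand) and Csf2rb2 at chr15:78305672-78305971 (minus strand). Capitals mark matches on either strand to the ETS core GAGGAA, which transcription factors such as PU.1 bind, or to the STAT palindrome TTCNNNGAA.
Flt3 promoter: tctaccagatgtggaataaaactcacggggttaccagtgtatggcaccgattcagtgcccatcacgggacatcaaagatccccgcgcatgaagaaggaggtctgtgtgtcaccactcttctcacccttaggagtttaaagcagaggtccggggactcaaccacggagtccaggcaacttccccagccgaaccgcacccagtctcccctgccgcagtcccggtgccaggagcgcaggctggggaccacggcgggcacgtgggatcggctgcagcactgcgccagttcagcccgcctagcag
Csf2rb2 promoter: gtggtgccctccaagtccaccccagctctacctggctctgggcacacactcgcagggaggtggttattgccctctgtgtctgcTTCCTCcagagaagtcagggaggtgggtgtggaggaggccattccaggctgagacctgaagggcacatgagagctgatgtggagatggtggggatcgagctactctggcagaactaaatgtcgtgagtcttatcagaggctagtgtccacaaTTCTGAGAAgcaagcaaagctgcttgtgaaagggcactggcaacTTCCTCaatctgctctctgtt

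The Flt3 window held neither motif and no p53 half-site. The Csf2rb2 window held the ETS core at 2 places and 1 STAT palindrome, which began 15 bases before the start site and overlaps neither ETS match. Of 32851 promoter windows of this length, 28.3% held the ETS core, 8.30% the STAT palindrome and 8.36% the p53 half-site. Among the other receptors the ETS core was found in the windows of Kit, Csf3r, Csf2ra and Il6ra and not in that of Il3ra, and the other 2 motifs in none of these 5. A match describes these letters and not binding.

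Kit (ENSMUSG00000005672; chromosome 5, 75574916 to 75656722) had 9433, 9547, 9226 and 9631 normalised counts in controls 1 to 4, against 8998, 10675, 10248 and 9775 in knockouts 5 to 8. The knockouts spread on both sides of the controls. The fold was 1.05, with a 95% interval from 0.946 to 1.16 (limma adjusted p = 0.738). The closest genes to Flt3 in pattern, by the root mean square difference of log2 deviations from the control mean over the 8 libraries, were Slc2a6 (0.180), Fndc10 (0.219) and Slc39a14 (0.228) among 10844 genes compared. Slc2a6, a glucose transporter family gene, went from 307 ± 83.5 to 557 ± 69.4 and Slc39a14, a zinc transporter gene, from 222 ± 53.3 to 445 ± 34.4 (SD, n = 4 each). Both passed (limma adjusted p = 0.0263 and 0.00455), and Slc2a6 no longer did without control 3 or 4 or knockout 5 or 7 (0.0679 to 0.0991). With no intensity trend neither did (0.167 and 0.0531). Fndc10 had 123 ± 43.6 and 217 ± 19.3 (adjusted p = 0.119). In all 3, as in Flt3, control 4 was the lowest library. The 3 genes were picked for their likeness to Flt3 in these same 8 libraries. This shared low and their calls therefore largely follow from that choice.

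**Figure D3:**
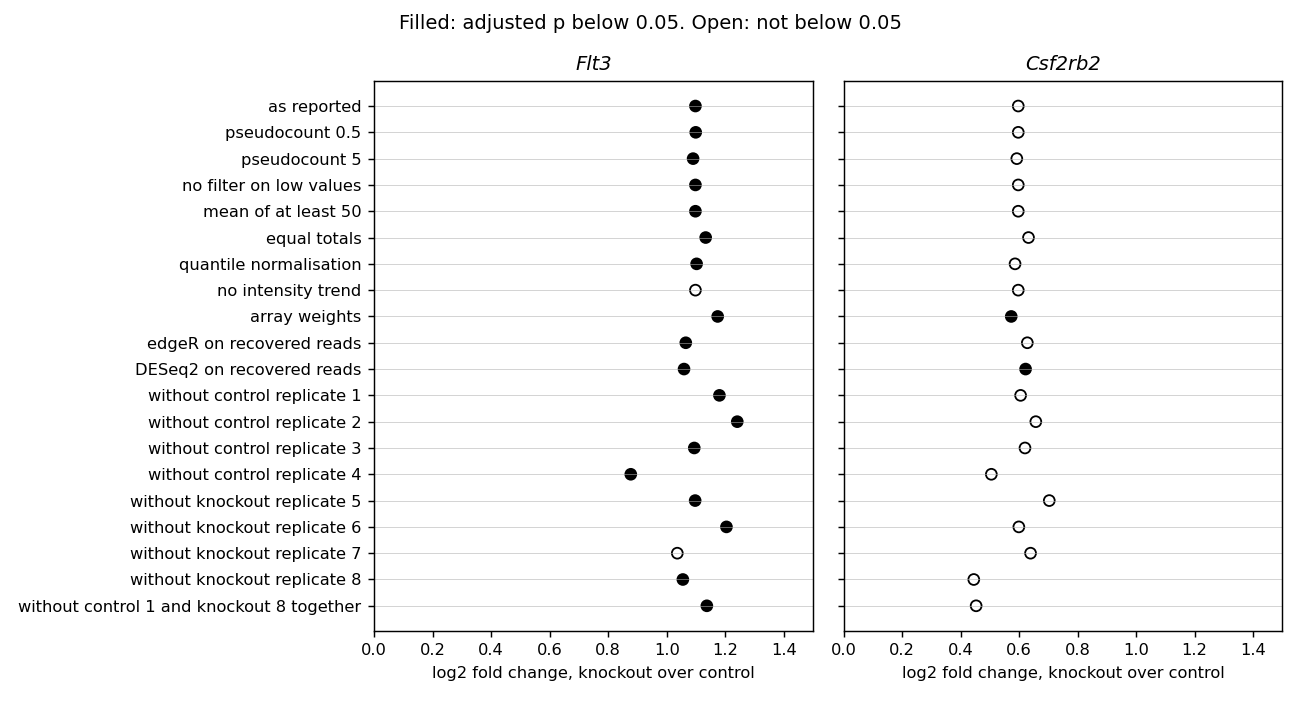
Log2 fold change (horizontal axis) of Flt3 and Csf2rb2 under each setting tried, 1 row per setting; filled points have an adjusted p below 0.05. Flt3 stays between 0.88 and 1.24 and Csf2rb2 between 0.45 and 0.70.

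Csf3r (ENSMUSG00000028859; chromosome 4, 126024550 to 126044440) did not differ between the groups beyond their spread. It had 4488, 4813, 4775 and 5274 normalised counts in controls 1 to 4, against 4656, 5323, 4871 and 4477.1 in knockouts 5 to 8. The 2 ranges nearly coincide. The fold was 0.998, with a 95% interval from 0.891 to 1.12 (limma adjusted p = 0.995), so its sign depended on the scaling.

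The beta chain genes Csf2rb and Csf2rb2 are copies of each other, and the split of reads between them is uncertain. They lie on chromosome 15, Csf2rb2 (ENSMUSG00000071714) from 78282507 to 78305721 on the minus strand and Csf2rb (ENSMUSG00000071713) from 78325752 to 78353847 on the plus strand. Over 2628 aligned coding bases of the GENCODE M21 models, 95.2% are identical, with 125 differences. Reads were 50 bases from each end, per the labels, and 18.4% of the distinct 50-base words of the Csf2rb2 transcripts also occur in those of Csf2rb, against 12.3% the other way. How reads that match both were counted is not stated in the labels or the table.

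Coding stretches of 90 bases show why part of the reads can be told apart and part cannot. They are the most and the least alike stretches that lie without a gap inside 1 exon of each gene. In the most alike stretch, Csf2rb (chr15:78341658-78341747, plus strand, exon 9 of Csf2rb-206) and Csf2rb2 (chr15:78291563-78291652, minus strand, exon 8 of Csf2rb2-201) have 0 differences. In the least alike stretch, Csf2rb (chr15:78338897-78338986, exon 5) and Csf2rb2 (chr15:78294345-78294434, exon 4) differ at 16 bases, in capitals.
Csf2rb, most alike: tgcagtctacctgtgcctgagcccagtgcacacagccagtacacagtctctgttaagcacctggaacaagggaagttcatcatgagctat
Csf2rb2, most alike: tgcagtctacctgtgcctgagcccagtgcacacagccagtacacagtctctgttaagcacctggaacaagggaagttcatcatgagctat
Csf2rb, least alike: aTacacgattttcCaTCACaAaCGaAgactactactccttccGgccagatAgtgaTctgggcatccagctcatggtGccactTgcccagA
Csf2rb2, least alike: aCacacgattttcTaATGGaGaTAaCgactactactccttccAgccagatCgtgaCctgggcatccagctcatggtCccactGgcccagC

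Csf2rb2 had 395.8, 441.1, 408.5 and 321.5 normalised counts in controls 1 to 4, against 471.7, 585.9, 539.3 and 807.5 in knockouts 5 to 8. Every knockout lay above every control, and knockout 8 was far the highest. The means were 392 ± 50.6 and 601 ± 145 (SD, n = 4 each), a 1.51-fold difference with a 95% interval from 1.19 to 1.92 that did not pass the test (limma adjusted p = 0.0976). It passed with DESeq2 (adjusted p = 0.0106) and with array weights (0.0270), and not in the 17 other settings tried (0.0665 to 0.316). Without knockout 8 the log2 fold change fell from 0.60 to 0.45.

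Csf2rb, the shared beta chain, had 5304, 5317, 5128 and 5183 normalised counts in controls 1 to 4, against 5289, 5852, 6099 and 7237 in knockouts 5 to 8. Knockouts 6 to 8 lay above all controls and knockout 5 among them. The fold was 1.16, with a 95% interval from 1.02 to 1.32 (limma adjusted p = 0.288). With both beta chain genes added into 1 row, the log2 fold change was 0.25 (adjusted p = 0.239), so the summed beta chain did not pass either. Knockout 8, where both genes were highest, also had the most mast cell and basophil marker transcripts, 24280 normalised counts, where knockouts 5 to 7 had 9925 to 14599 and the controls 13818 to 17801. Fcer1a, the alpha chain of the high-affinity IgE receptor on those cells, had 2524 in knockout 8 and at most 489.6 in any other library. Cpa3, Mcpt8, Ms4a2, Prss34 and Gata2 were also highest in knockout 8. Hdc (6686) and Cma1 (13.5) lay within their control ranges there, and Gzmb (11.5) was at its lowest. Of that list 1 of 9 tested members passed, Gzmb, which fell, beside 1.40% of all genes tested. Tpsb2 had at most 13.7. Eosinophil markers summed to 22439 to 35029 in controls and 7609 to 13285 in knockouts 5 to 7, but to 26072 in knockout 8; Ear1 and Ear2 fell. The part of these cells in the beta chain values was not tested.

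The alpha chains did not pass the test. Csf2ra (ENSMUSG00000059326; chromosome 19, 61223957 to 61228429) had 3559, 3961, 4349 and 3424 normalised counts in controls 1 to 4, against 4089, 3754, 4311 and 3415 in knockouts 5 to 8. The groups overlap almost fully, with a fold of 1.02 and a 95% interval from 0.887 to 1.17 (limma adjusted p = 0.938). Il3ra (ENSMUSG00000068758; chromosome 14, 14346275 to 14356011) had 2100, 2058, 1928 and 1777 in controls and 2443, 2134, 2401 and 1997 in knockouts. Knockouts 5 to 7 lay above all controls and knockout 8 among them. Its fold was 1.14, with a 95% interval from 0.999 to 1.3 (limma adjusted p = 0.382). Without control 1 and knockout 8 together the log2 fold change of Il3ra was 0.28 (adjusted p = 0.0634).

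Ratios within a library compare receptor chains independently of the scaling between libraries. The ratio of Csf2rb2 to Csf2rb, per kilobase, was 0.115, 0.127, 0.122 and 0.0952 in controls 1 to 4, against 0.137, 0.154, 0.136 and 0.171 in knockouts 5 to 8, higher in every knockout. The difference was 0.38 on the log2 scale (two-sided exact permutation p = 0.0286, the smallest that 4 against 4 libraries allow; 0.114 adjusted over the 4 ratios compared). A single ratio cannot reach a lower adjusted value with this number of libraries, so the adjusted p does not weigh on the difference either way. The ratios of Il3ra to Csf2rb (0.841 to 0.971 in controls, 0.677 to 1.13 in knockouts), Csf2ra to Csf2rb (1.67 to 2.15 and 1.20 to 1.96) and Il6ra to Il6st (1.98 to 2.35 and 1.77 to 2.34) overlapped between the groups. Their exact permutation p-values were 0.371 or higher. Knockout 8 had the lowest value of these 3 ratios among all 8 libraries.

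**Figure D4:**
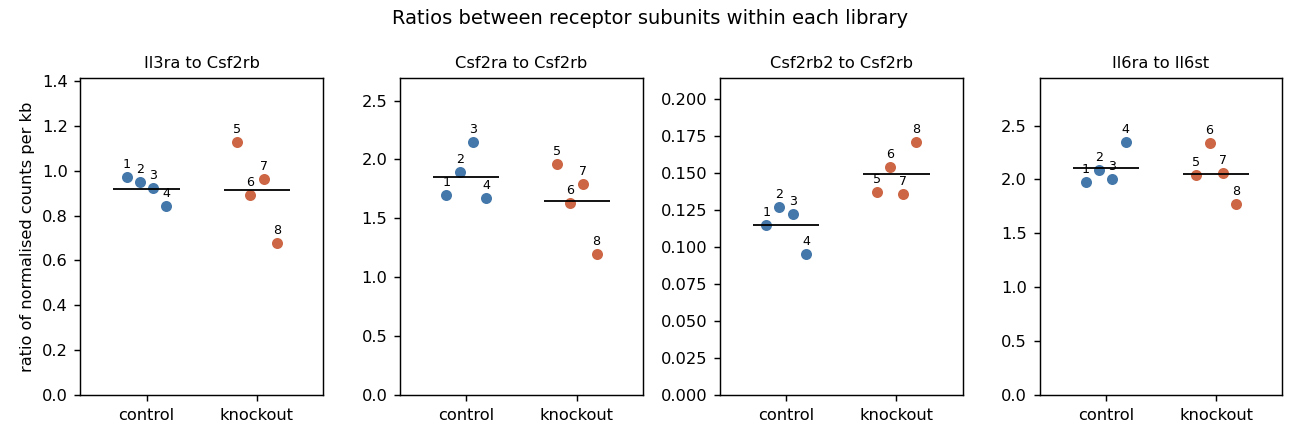
Ratios of normalised counts per kilobase between receptor chains, 1 point per library with its number and a line at the group mean; vertical axes start at 0. The ratio of Csf2rb2 to Csf2rb is 0.0952 to 0.127 in controls and 0.136 to 0.171 in knockouts, while the other 3 ratios overlap.

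Il6ra (ENSMUSG00000027947; chromosome 3, 89864059 to 89913196) had 5267, 4971, 4471 and 4655 normalised counts in controls 1 to 4, against 5713, 4869, 5604 and 3445 in knockouts 5 to 8. Knockouts 5 and 7 were the 2 highest libraries and knockout 8 the lowest. The fold was 0.996, with a 95% interval from 0.820 to 1.21 (limma adjusted p = 0.993), and its sign changed with the scaling and without control 1, control 2 or knockout 8. The largest shift from 1 library was without knockout 8, where the log2 fold change was 0.16 (adjusted p = 0.317). Its signalling partner Il6st had 3423, 3060, 2870 and 2542 in controls and 3602, 2676, 3498 and 2496 in knockouts, with knockout 8 again lowest (limma adjusted p = 0.939).

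Other cytokine receptors were followed in a list of 30 genes, of which 24 were tested. In it 2 rose and 0 fell, with a median log2 fold change of 0.04. For this and the lists that follow, the share over all genes tested was 1.40%. Il1r1, the signalling receptor of IL-1, went from 137 ± 31.0 to 283 ± 38.1 normalised counts (SD, n = 4 each), a 2.08-fold rise (limma adjusted p = 0.00709). Crlf2, a chain of the receptor for thymic stromal lymphopoietin, averaged 1556 ± 118 in controls and 2009 ± 100 in knockouts, 1.29-fold higher at an adjusted p of 0.0381. Leaving out any 1 of controls 2 to 4 or knockouts 5 to 7 ended that call (0.0687 to 0.156). Without knockout 8, 4 members were called (3.41% of all genes), and 6 without control 1 and knockout 8 together (8.62%). Of 9 ligand genes 2 were tested, and 0 passed with limma, edgeR or DESeq2 (0 at an unadjusted p below 0.05): Csf1, the ligand of the M-CSF receptor, had 405 ± 60.7 and 478 ± 175, and Flt3l, the ligand of FLT3, had 44.9 ± 12.2 and 49.2 ± 19.0. Flt3l shares 856 exon bases with Gm45713 on its own strand, so its level is uncertain.

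Downstream of the receptors, 1 JAK and STAT gene, 1 adaptor or kinase gene and 0 inhibitors passed. Of 11 JAK and STAT genes 1 rose and 0 fell (median log2 fold change 0.07): Jak3, the kinase of the common gamma chain, went from 2235 ± 96.1 to 2979 ± 357 (1.33-fold; limma adjusted p = 0.0347). Leaving out any 1 of controls 2 to 4, knockout 5 or knockout 6 ended that call (0.0761 to 0.146). Of 21 adaptors and kinases 1 rose and 0 fell (median -0.04): Fyn, a Src family kinase, went from 438 ± 88.8 to 669 ± 21.4 (1.55-fold; adjusted p = 0.0281), a call that ended on leaving out control 1, control 3, control 4 or any 1 of knockouts 5 to 7 (0.0532 to 0.101). Of 14 tested inhibitors that act at the receptor 0 passed with limma, edgeR or DESeq2 (median 0.07), and 4 had an unadjusted p below 0.05 with each. Ptpn6, the phosphatase SHP-1 and 1 of those 4, had 9857 ± 429 and 8661 ± 165 (limma adjusted p = 0.206). It was lower in every knockout than in any control. With array weights it passed (adjusted p = 0.0462), where 6.00% of all genes did. Cbl, a ubiquitin ligase that acts on Kit and FLT3, had 8129 ± 780 and 7372 ± 701. The other 3 of those 4, chosen for mention after their values were seen, were the feedback inhibitors Socs1 (46.5 ± 17.6 and 79.0 ± 17.9), Socs3 (42.7 ± 30.0 and 89.3 ± 26.8) and Cish (43.8 ± 32.4 and 81.9 ± 15.6), whose groups overlapped.

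Of the genes that STAT5 and MAP kinase signalling are known to induce, 15 were tested and 1 passed. A log2 fold change above 0 was found for 13 of the 15, beside 47.2% of all genes tested, and the median was 0.35 beside -0.01. The groups did not overlap for 3 of them, Pim1, Id1 and Etv5, where this held for 7.41% of all genes tested. Knockout 8 was below every control for Dusp6, Dusp5, Spry1, Spry2, Osm and Mcl1. Pim1, a kinase gene that cytokines induce through STAT5, had 4545, 3775, 3423 and 2883 normalised counts in controls 1 to 4, against 5691, 5614, 5362 and 7790 in knockouts 5 to 8. All knockouts lay above all controls, and the rise was 1.68-fold (limma adjusted p = 0.0110). Without knockout 8, 5 genes of this list were called (3.41% of all genes), and 7 without control 1 and knockout 8 together (8.62%). DESeq2 called 5 (3.34%), array weights 6 (6.00%) and the fit with no intensity trend 0 (5 at an unadjusted p below 0.05).

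**Figure D5:**
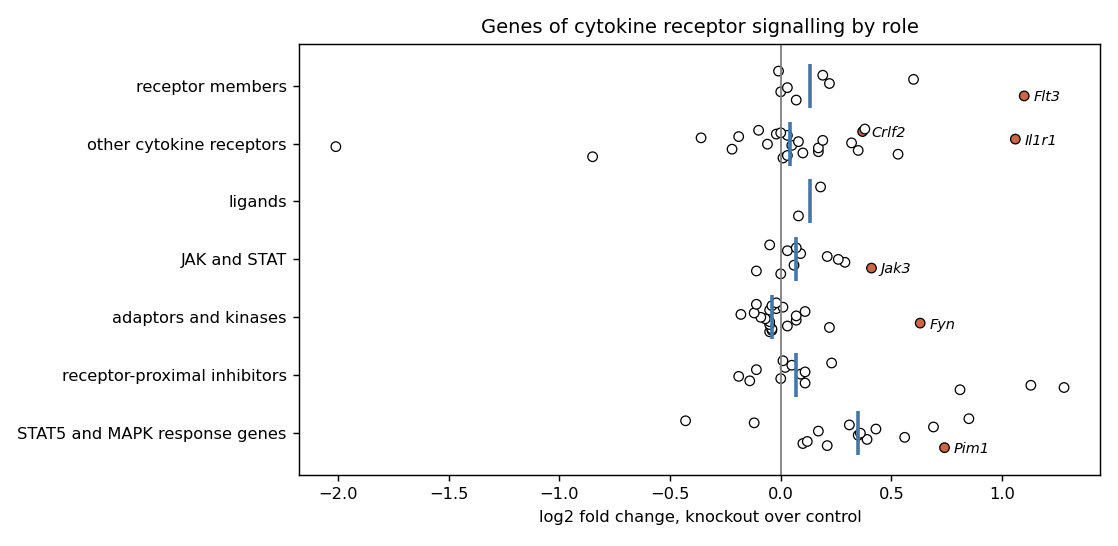
Log2 fold change (horizontal axis) of the tested genes of cytokine receptor signalling, by role; each point is a gene, filled and named where its adjusted p was below 0.05, and the vertical bars are list medians. The 8 receptors have a median of 0.13 and the STAT5 and MAPK response genes 0.35, and 1 or 2 genes per list are filled, except in the ligands and the inhibitors, where 0 are.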

How the data were processed

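RNA with poly(A) tails was sequenced strand-specifically from both fragment ends, per the labels' protocols. Tools named in the submitters' processing notes are GSNAP, featureCounts 2.0.1, FastQC, R 3.5.1 and DESeq2 1.30.1, with mm10 as build. Neither annotation release nor strand setting is stated there. Each deposited signal value is a gene count scaled by the authors with a library factor, kept to 1 decimal. Dividing by the step of each library gave whole reads for 99.9970% of values above 0, within 0.051 normalised counts. Gene lengths are the authors' deposited bases.

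Genes were compared with limma 3.58.1 (R 4.3.3; intensity trend) on log2(normalised count + 1), keeping 16688 genes whose mean reached 10, with Benjamini-Hochberg adjusted p under 0.05 as threshold; fold changes are on that scale. edgeR 4.0.16 and DESeq2 1.42.0 ran on the recovered reads. All 3 were tested on simulated data. Ratios were compared by exact permutation over libraries. The mice were separate, and replicate numbers are not shared between groups. Results were recomputed with array weights, without the trend, at other pseudocounts (0.5, 5) and filters (none, 50), after quantile normalisation or scaling to equal totals, with both beta chain genes summed, and with libraries left out.

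All receptors are named. By rule, every other list gives up to 4 called genes, or its 2 most abundant where 0 were called, and the 3 genes most like each called receptor are added. Further genes named from these lists, and the single cell type markers named, fall outside this rule and were named with their values known. The receptors and lists were chosen with earlier results of these data known. Start and end of all 8 receptors matched GENCODE M21. Il3ra and Il6ra share exon bases with an opposite-strand gene of mean 2.5 and 8.2 normalised counts, and Jak3, Ptpn6 and Pim1 with genes of mean 25.6, 19.5 and 22.6.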

Additional observations from a re-analysis of the deposited data

Results flagged for a closer look

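Within the 4 knockouts, Pim1 in knockout 8 (7789.7 normalised counts) stood apart from the other 3 libraries (5362 to 5691), with a gap of 0.865 of the group's range. Among 48 groups of 4 values examined in this way 1 stood out, and chance alone marks about 1 in 20.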

How the results depend on the processing

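The log2 fold change of Flt3 stayed between 0.88 and 1.24 in all 19 alternatives, and its call was lost in 2. The number of receptors called was 1, and it was 0 with no intensity trend, 2 with array weights, 2 with DESeq2 and 0 to 1 with 1 library left out. The number of all genes called was 234, 104 with no intensity trend, 1001 with array weights, 558 with DESeq2, 135 to 569 with 1 library left out (371 without control 1, 569 without knockout 8) and 1440 without control 1 and knockout 8 together, where all knockouts precede all controls in the sample numbers. The cause of these shifts was not tested.

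Values near 0 changed sign. Csf3r was 0.033 at equal totals, 0.016 after quantile normalisation, 0.01 with edgeR and 0.004 with DESeq2, and -0.05 to 0.04 with 1 library left out. Il6ra was 0.03 at equal totals, 0.019 after quantile normalisation, 0.088 using array weights, 0.03 with edgeR, 0.024 with DESeq2, 0.197 without control 1 and knockout 8 together, and -0.087 to 0.16 with 1 library left out. With 1 library left out Csf2ra ranged from -0.024 to 0.091, Csf1 from -0.029 to 0.336 and Flt3l from -0.085 to 0.290. Csf1 was -0.004 without control 1 and knockout 8 together, and Flt3l -0.013 after quantile normalisation. The log2 ratio of Il6ra to Il6st ranged from -0.105 to 0.028 and that of Il3ra to Csf2rb from -0.137 to 0.110. None of these passed a test in the settings named. With no intensity trend Crlf2 (0.136), Jak3 (0.172), Fyn (0.128), Pim1 (0.162), Slc2a6 (0.167) and Slc39a14 (0.0531) lost their calls (adjusted p).

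No paired analysis was possible because the groups share no replicate numbers.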
